A study of Danio rerio with 9 samples.

Results

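The genes examined encode coagulation and fibrinolysis proteins, most of them made by hepatocytes, in adult zebrafish liver sequenced as bulk RNA. They were taken from a list of 33 symbols, and a gene ID belonged to the set where its Ensembl zebrafish symbol, case ignored, was on that list. Of the 33 symbols, 25 matched and 8 did not (f7i, f7l, f9b, proca, procb, vtna, vtnb and tfpia), and those 8 were not analysed here under these names. The 25 symbols held 28 of the 33716 gene IDs measured, since 3 IDs are listed as f7 and 2 as proc. Tests were run on genes whose mean reached 0.5 FPKM (fragments per kilobase of gene and per M reads assigned to genes) over the libraries, which 27 of the 28 IDs met. The exception was f3a, a tissue factor gene, which stood at 0.062 to 0.16 FPKM.

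The 9 libraries came from 3 groups of 3. Wild-type fish of the AB line were 3.5 months old. Fish homozygous for a null allele of pdia6 (pdia6-/-), without the gene from the egg onward (maternal-zygotic), had the same age. Maternal-zygotic focad-/- fish have no age in the labels, so age and genotype cannot be told apart for them. The labels name the AB line for the wild-type fish alone, so line and genotype cannot be told apart for either null. The gene pdia6 encodes a protein disulfide isomerase, an enzyme that forms and rearranges disulfide bonds in the endoplasmic reticulum (ER), and focad encodes focadhesin. Whether each library is a separate fish is not in the labels, so the p-values reflect the scatter of these libraries, part of which may be technical.

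Blood clots when tissue factor and factor VII start a chain of serine proteases that ends in thrombin, which cuts soluble fibrinogen into fibrin. Protein C and its cofactor protein S limit thrombin formation, antithrombin and heparin cofactor II trap thrombin, and plasmin later dissolves the fibrin. Hepatocytes make most of these proteins and secrete them through the ER, where many receive disulfide bonds and vitamin K dependent carboxylation, so the liver is the main source of the clotting system in plasma.

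Values by library are given in the order of replicates 1 to 3. Each library held 46.1 to 54.5 M reads assigned to genes, and replicate pairs differed in their read counts far beyond sampling noise (chi-square of 139 to 725 per degree of freedom). Focad transcript measured 1.13, 0.52 and 1.03 FPKM in wild type, 0.28, 0.53 and 0.24 under the focad null label and 1.21, 0.93 and 1.09 under the pdia6 null label. The library labelled focad null replicate 2 therefore lay inside the wild-type range, and a null allele may still be transcribed. Transcript of pdia6 measured 265, 14.2 and 56.4 FPKM in wild type, 26.4, 26.0 and 17.8 under the focad null label and 44.3, 0.90 and 0.91 under the pdia6 null label. The library labelled pdia6 null replicate 1 therefore lay inside the wild-type range too. It was also the highest in hspa5, an ER chaperone transcript, at 2359 FPKM, and the part of this in its pdia6 level was not tested. Counts, calls and the changes that shift most are given below with and without the libraries labelled focad null replicate 2 and pdia6 null replicate 1. Hepatocyte markers were abundant throughout, with fabp10a, a liver fatty acid binding protein, at 11024 to 33693 FPKM. They summed to 170919 to 200805 FPKM in wild type, 153071 to 162440 under the focad null label and 155697 to 176467 under the pdia6 null label. All focad null sums lay below all wild-type sums after the FPKM columns were rescaled, but not before. The part of this in the results was not tested. Intestine markers summed to 901 to 2110 FPKM in wild type, 3036 to 14020 under the focad null label and 540.1 to 2626 under the pdia6 null label. Exocrine pancreas markers summed to 329.6 to 1242, 1007 to 4789 and 393.7 to 987 FPKM in the same order. The highest intestine sum was that of the library labelled focad null replicate 2. Of 12 pancreas markers tested 1, spink4, was called higher in focad null than in wild type, against 0.625% of all genes. Of 13 intestine markers tested 1, fabp2, was called higher in focad null than in pdia6 null, against 0.609% of all genes. These calls held in 6 and 9 of 20 alternatives, and no other hepatocyte, intestine or pancreas marker was called. Erythrocyte markers summed to 128 to 220.0 FPKM in wild type, 44.6 to 115 under the focad null label and 199 to 583 under the pdia6 null label. Of 4 tested, 1, hbaa2, was called higher in focad null than in wild type, against 0.625% of all genes tested. The hbaa2 call held in 7 of the 17 alternatives that tested it. The mean of hbaa2 did not reach 2 FPKM. In the same comparison 3 of the 4 log2 changes were negative, with a median of -0.76. Macrophage markers summed to 83.6 to 178, 79.9 to 1047 and 90.5 to 104 FPKM in the same order, with 0 of 4 tested called and lyz, the lysozyme gene, listed at 0 in all 9 libraries.

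In focad null liver against wild type, transcript of pros1, encoding protein S, fell, and no other coagulation gene passed the test. Its log2 change was -3.34 (SE 0.64, limma adjusted p = 0.0459, n = 3 against 3). The call held in 7 of 20 alternative analyses, but when the library labelled focad null replicate 2 was omitted the change was -3.19 (limma adjusted p = 0.105). Lower calls were thus 1 of 27, against 0.933% of all 13290 genes tested, and higher calls 0 of 27, against 0.625%. Most of the others leaned the same way without passing. The log2 change was below 0 for 26 of 27 coagulation genes and for 48.8% of all genes, and its median was -0.57 for the coagulation genes and 0.011 for all genes. The groups did not overlap for 9 of the 27 genes, against 20.0% of all genes. In all 9 every focad null library lay below every wild-type library, against 9.64% of all genes, and in 0 of 27 above, against 10.4%. The 9 were fga, f2, f5, habp2, pros1, serpinc1, plg, serpinf2a and ggcx. For ggcx the gap was narrow, at 83.38 FPKM in focad null replicate 2 against 83.66 in wild-type replicate 2. Without the rescaling of the FPKM columns, the groups overlapped for ggcx and serpinf2a. At an unadjusted p under 0.05 stood 5 of the 27, against 14.7% of all genes. The 19 hepatocyte markers tested, 1 of which (fgb) is also in the coagulation set, had a median log2 change of -0.52 with 15 below 0 and 0 called. In bulk tissue, fewer hepatocytes and less RNA of these genes in each hepatocyte cannot be told apart. Intestine and pancreas markers were higher under the focad null label, with medians of 1.84 over 13 genes and 1.74 over 12, and their part in the result was not tested. Without the library labelled focad null replicate 2 the median of the coagulation genes was -0.40 and 24 of 27 were below 0. The change then turned sign for 4 of 27 (f8, f3b, cpb2 and serpind1) and moved by over 1.5 times for another 9.

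In pdia6 null liver against wild type no coagulation gene passed the test. By limma 0 of 27 were called higher, against 0.519% of all genes, and 0 of 27 lower, against 0.707%. There were 6 of 27 at an unadjusted p under 0.05, against 12.5%. The log2 change was below 0 for 15 of 27 and for 50.8% of all genes, with medians of -0.14 and -0.0060. The groups did not overlap for 8 of 27, against 20.6% of all genes. Every pdia6 null library lay below every wild-type library for f2, habp2, both proc IDs, pros1 and serpinf2a, and above it for f3b and f13a1b. Without the rescaling of the FPKM columns, the groups overlapped for f2. The 20.6% covers both directions together, so it is not a measure for either direction alone. The library labelled pdia6 null replicate 1 carried much of the spread: without it the median was -0.47, 20 of 27 were below 0, and the 2 proc IDs, which encode protein C, passed. The change then turned sign for 5 of 27 (fgb, fgg, f7 ENSDARG00000034862, f13b and ggcx) and moved by over 1.5 times for another 4. With pdia6 null replicate 2 left out the median was 0.07 and 12 of 27 were below 0. Hepatocyte markers had a median of -0.23, with 12 of 19 below 0 and 0 called.

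In focad null liver against pdia6 null no coagulation gene passed the test either. By limma 0 of 27 were called higher, against 0.609% of all genes, and 0 of 27 lower, against 0.594%, and 6 of 27 stood at an unadjusted p under 0.05, against 17.9%. The median log2 difference was -0.26, with 21 of 27 below 0, against 0.014 and 48.6% of all genes. The focad null libraries all lay below the pdia6 null libraries for f10, f9a, f7 (ENSDARG00000100782), cpb2, f13a1b and vkorc1, 6 of 27, against 11.2% of all genes, and above them for 0 of 27, against 13.2% (24.4% in either direction). When the library labelled pdia6 null replicate 1 was left out, 15 of 27 were below 0 and the median was -0.016. Without both libraries whose targeted transcript lay inside the wild-type range, the median was 0.022 and 13 of 27 were below 0, with a turned sign for 10 of 27 and a move of over 1.5 times for another 8. Both null groups were compared with the same wild-type libraries, so the comparisons with wild type are not independent of each other.

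**Figure D1:**
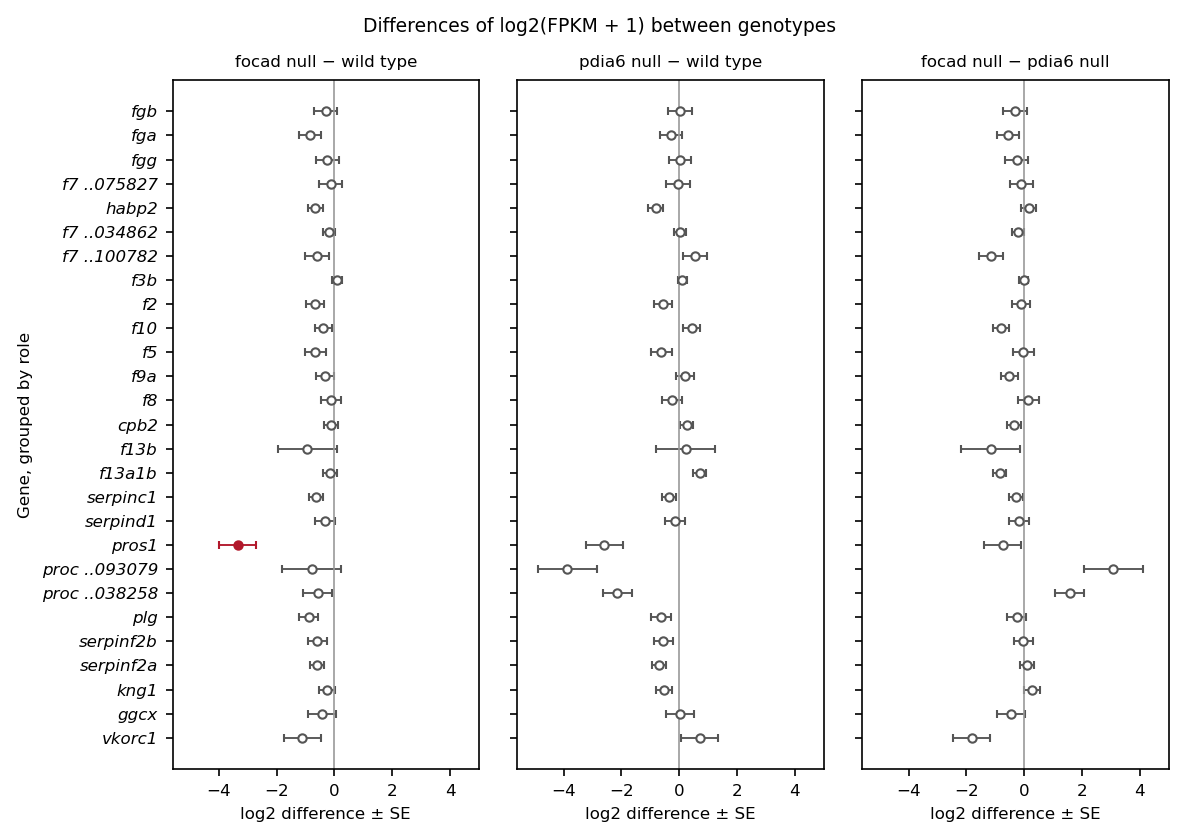
Log2 changes on the log2(FPKM + 1) scale with standard errors for the 27 coagulation and fibrinolysis genes tested, in 3 panels for the 3 comparisons, ordered by role. The filled red point is the only call, pros1 in focad null against wild type at -3.34, and 26 of 27 points of that panel lie below 0.

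Levels in FPKM, which are per gene length, ran from 0.06 for f3a to 31094 for fgb, the fibrinogen beta chain. Fibrinogen chains led the set. The 3 fibrinogen genes made up 76.1 to 88.0% of the FPKM of all members in each library. Reads of the 28 IDs are given as their share of all reads assigned to genes. It was 7.48, 5.49 and 7.21 percent in wild-type replicates 1 to 3. The share was 4.80, 4.46 and 5.43 percent under the focad null label and 10.8, 4.10 and 5.44 percent under the pdia6 null label. The focad null libraries all lay below the wild-type libraries by this share, by a narrow gap. By share of FPKM, at 8.11, 5.57 and 7.47 percent in wild type and 4.89, 4.34 and 5.72 percent under the focad null label, they overlapped. The pdia6 null libraries held both the highest and the lowest share. Of the 27 genes tested, 9 were highest in the library labelled pdia6 null replicate 1, 7 in wild-type replicate 3 and 6 in wild-type replicate 2. The lowest value fell in the library labelled focad null replicate 2 for 11 genes and in pdia6 null replicate 2 for 7.

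**Figure D2:**
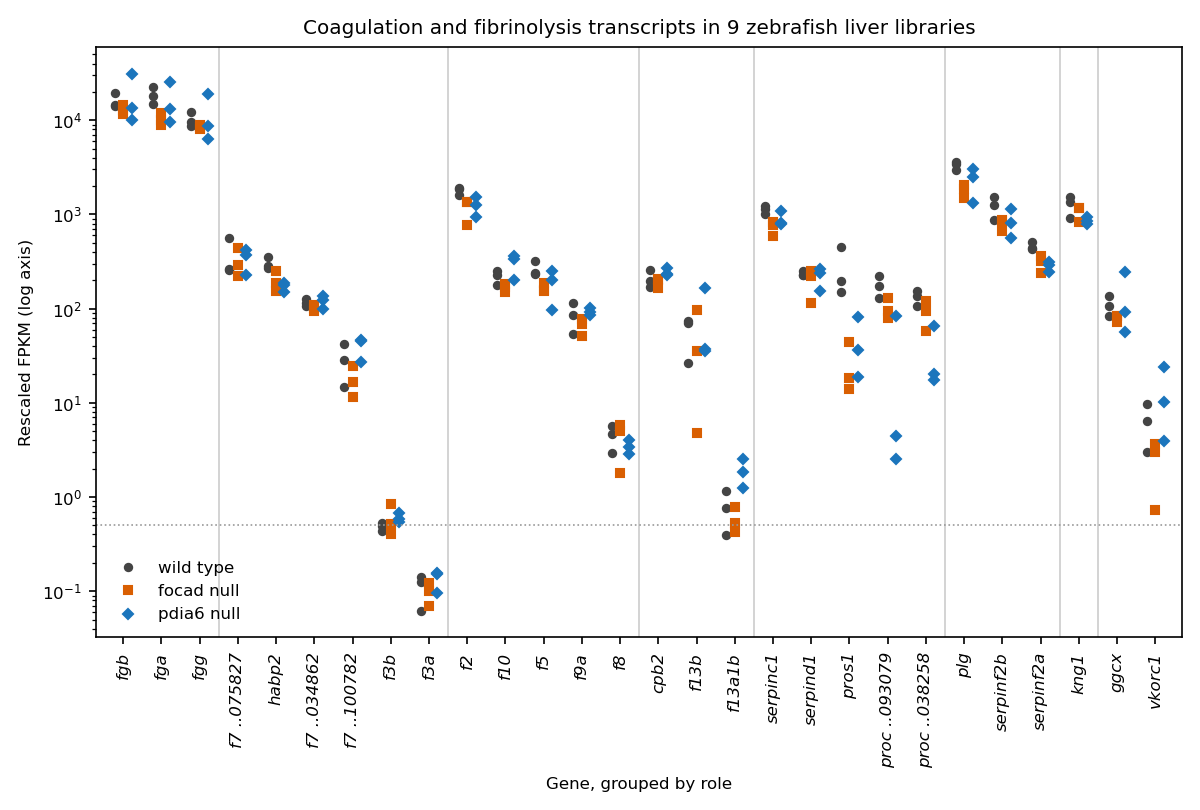
Level of each of the 28 gene IDs in each of the 9 libraries, as FPKM on a log axis, coloured by genotype and grouped by role. The dotted line marks the minimum mean of 0.5 FPKM for testing, which f3a alone does not reach, and the fibrinogen chains lie highest.

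Fibrinogen is a hexamer of paired alpha, beta and gamma chains joined by disulfide bonds. Fga (ENSDARG00000020741), the alpha chain, measured 17914, 14793 and 22679 FPKM in wild type, 8795, 11917 and 10075 under the focad null label and 25705, 9684 and 13268 under the pdia6 null label. All focad null values lay below all wild-type values, while the pdia6 null values spanned the range on both sides. The log2 changes were -0.84 in focad null (SE 0.38, limma adjusted p = 0.354) and -0.29 in pdia6 null (SE 0.38, adjusted p = 0.844), the second -0.67 without the library labelled pdia6 null replicate 1. Fgb (ENSDARG00000008969), the beta chain, measured 19494, 14543 and 14211 FPKM in wild type, 11584, 14541 and 12713 under the focad null label and 31094, 10122 and 13362 under the pdia6 null label. Here the focad null values overlapped with wild type, at a log2 change of -0.30 (limma adjusted p = 0.795). The gamma chain gene fgg (ENSDARG00000037281) gave 12238, 8688 and 9609.6 FPKM in wild type, 8074, 8501 and 8994 under the focad null label and 18918, 6399 and 8780.3 under the pdia6 null label. It overlapped as well, at -0.24 (limma adjusted p = 0.842). Each chain was highest in the library labelled pdia6 null replicate 1, and fgb and fgg were lowest in pdia6 null replicate 2.

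Ratios between chains compare them within a library. The ratio of fga to fgb FPKM was 0.919, 1.02 and 1.60 in wild type, 0.759, 0.820 and 0.793 under the focad null label and 0.827, 0.957 and 0.993 under the pdia6 null label. The focad null ratios lay below all 6 others, but by a narrow gap. It lay between 0.820 in the library labelled focad null replicate 2 and 0.827 in that labelled pdia6 null replicate 1. The targeted transcript of both lay inside the wild-type range. The ratio of fga to fgg was 1.46, 1.70 and 2.36, 1.09, 1.40 and 1.12 and 1.36, 1.51 and 1.51 in the same order, again with no overlap between focad null and wild type. Both differences from wild type had a two-sided exact permutation p of 0.1, the smallest that 3 against 3 allow, and 0.300 after Benjamini-Hochberg adjustment over 9 such tests. The ratio of fgb to fgg ran from 1.48 to 1.67 in wild type, 1.41 to 1.71 under the focad null label and 1.52 to 1.64 under the pdia6 null label, with full overlap (exact permutation p = 0.6 for focad null against wild type, n = 3). Gene order in the RefSeq annotation of GRCz12tu, another assembly than the authors', places fgb and fga 2 protein-coding genes apart on chromosome 1 and fgg on the same chromosome, 261 genes from fgb.

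**Figure D3:**
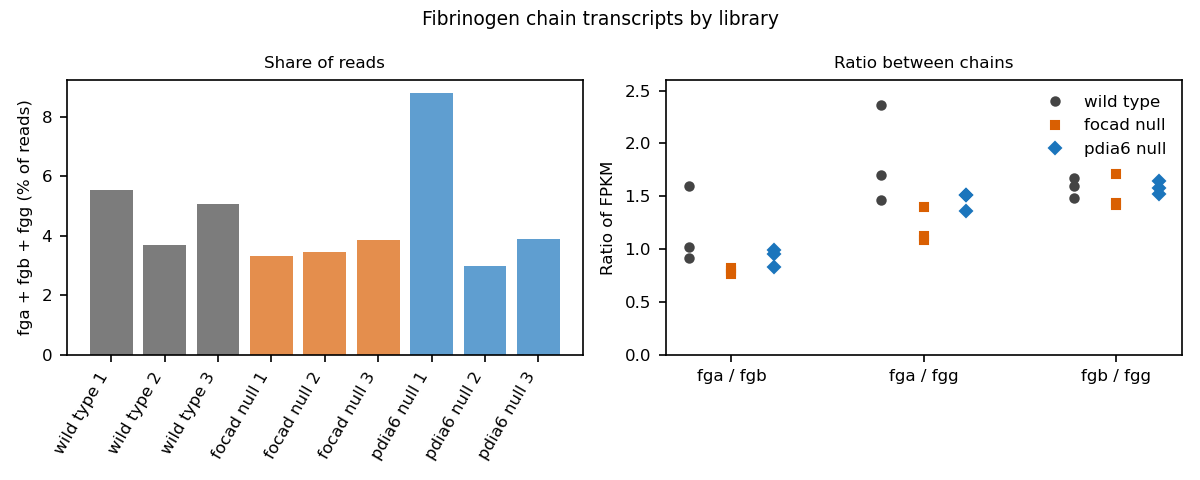
Fibrinogen in each library: the summed share of reads of fga, fgb and fgg in percent and the FPKM ratios between chains, with libraries grouped by genotype. The 3 focad null ratios of fga to fgb, 0.759 to 0.820, lie below the other 6. The gap is narrow, with the library labelled pdia6 null replicate 1 at 0.827. The ratio of fgb to fgg overlaps in all groups.

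Initiation of clotting rests on tissue factor and factor VII, and habp2, a plasma serine protease that can activate factor VII, was placed with them. Tissue factor is mainly a protein of cells outside the blood, and its 2 genes were near the floor of the data, with f3b at 0.41 to 0.85 FPKM. The 3 IDs listed as f7 differed in level. ENSDARG00000075827 was the highest at 224 to 555 FPKM, ENSDARG00000034862 lay at 93.5 to 136 and ENSDARG00000100782 at 11.5 to 46.6. They share a symbol, but their sequences were not compared. Whether reads of one could be assigned to another is therefore not known, which leaves their levels uncertain. ENSDARG00000034862 spanned only 1.46-fold over the 9 libraries, one of the narrowest ranges of the set, and did not pass in any comparison. ENSDARG00000075827 gave 257, 555 and 265 FPKM in wild type, 291, 439.7 and 224 under the focad null label and 369, 228 and 418 under the pdia6 null label, with groups overlapping throughout. ENSDARG00000100782 gave 14.8, 28.3 and 42.0 FPKM in wild type, 16.8, 11.5 and 24.6 under the focad null label and 44.9, 27.3 and 46.6 under the pdia6 null label. For this ID the null groups did not overlap, at a log2 difference of -1.15 for focad null minus pdia6 null (SE 0.42, limma adjusted p = 0.222).

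Habp2 (ENSDARG00000057498) measured 272, 357 and 284 FPKM in wild type, 185, 250.4 and 152 under the focad null label and 150.1, 177 and 189 under the pdia6 null label. Every value of both null groups lay below every wild-type value. The log2 changes were -0.65 (SE 0.26, limma adjusted p = 0.300) and -0.82 (SE 0.26, adjusted p = 0.231), neither past the threshold.

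Factors IX and X and their cofactors VIII and V carry the signal to prothrombin, which becomes thrombin. Prothrombin, f2 (ENSDARG00000036041), measured 1868, 1903 and 1624 FPKM in wild type, 1345, 772 and 1364 under the focad null label and 1513, 943 and 1248 under the pdia6 null label. Both null groups lay wholly below wild type, but without the rescaling of the FPKM columns the pdia6 null values overlapped with wild type. The log2 changes were -0.68 (SE 0.31, limma adjusted p = 0.353) and -0.57 (SE 0.31, adjusted p = 0.512). Omitting the library labelled focad null replicate 2 left the first for f2 at -0.40 (limma adjusted p = 0.579). Factor X, f10 (ENSDARG00000088581), measured 178, 252 and 228 FPKM in wild type, 184, 149 and 169 under the focad null label and 336, 203 and 363 under the pdia6 null label. Its focad null values lay below all pdia6 null values, and 2 of the 3 pdia6 null values exceeded all wild-type values. The log2 difference of focad null minus pdia6 null was -0.80 (SE 0.29, limma adjusted p = 0.208).

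The cofactor genes were far apart in level. Factor V, f5, the cofactor of factor X, ranged over 95.9 to 323 FPKM and was lower in all focad null libraries than in wild type, at -0.66 (limma adjusted p = 0.441). Factor VIII, f8, the cofactor of factor IX, stood at 1.80 to 5.88 FPKM, and its log2 change did not pass in any comparison. Mammalian factor VIII is made mainly by endothelial cells, and the endothelial markers summed to 18.3 to 24.2 FPKM in wild type, 15.9 to 21.1 under the focad null label and 17.1 to 20.8 under the pdia6 null label, with 0 of 8 tested called. Factor IX, f9a, ranged over 50.9 to 114 FPKM, and its focad null values lay below its pdia6 null values at -0.51 (limma adjusted p = 0.432), or -0.34 without both libraries whose targeted transcript lay inside the wild-type range.

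Factor XIII crosslinks fibrin through its A subunit, carried in plasma by the B subunit, and carboxypeptidase B2 protects fibrin from lysis. F13a1b (ENSDARG00000036893), an A subunit gene, was low, at 1.14, 0.39 and 0.77 FPKM in wild type, 0.42, 0.78 and 0.53 under the focad null label and 2.56, 1.25 and 1.83 under the pdia6 null label. All pdia6 null values lay above all others. The log2 changes were 0.70 for pdia6 null (SE 0.23, limma adjusted p = 0.244) and -0.85 for focad null minus pdia6 null (SE 0.23, adjusted p = 0.127). Thrombocytes also carry this subunit in mammals, and the thrombocyte markers summed to 12.1 to 21.4 FPKM in wild type, 10.4 to 14.7 under the focad null label and 9.65 to 16.01 under the pdia6 null label, with 0 of 4 tested called and the receptor gene mpl at no more than 0.068 FPKM. The B subunit gene f13b (ENSDARG00000101353) gave 73.6, 70.2 and 26.3 FPKM in wild type, 35.6, 96.3 and 4.83 under the focad null label and 165, 37.1 and 35.5 under the pdia6 null label. It spanned 34.1-fold over the libraries, more within groups than between them. Its limma adjusted p was 0.733 for focad null and 0.974 for pdia6 null. Cpb2 ranged over 164 to 267 FPKM without a call.

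The largest log2 differences of the set, over the 27 genes and 3 comparisons, were those of the natural anticoagulants protein S and protein C. Pros1 (ENSDARG00000068261), encoding protein S, measured 152, 196 and 451 FPKM in wild type, 14.1, 18.2 and 44.5 under the focad null label and 18.9, 36.6 and 81.7 under the pdia6 null label. Each of the 6 null libraries lay below each wild-type library, with no overlap. The values rest on 9507, 10607 and 28239 reads in wild type, 1092, 1015 and 3201 under the focad null label and 1297, 2608 and 5275 under the pdia6 null label, so counting error is small beside the spread. On the log2(FPKM + 1) scale focad null was 10.1-fold lower than wild type. The log2 change in pdia6 null was -2.59 (SE 0.64, limma adjusted p = 0.120), which did not pass, and the nulls differed by -0.74 (SE 0.64, adjusted p = 0.583), or by -1.24 (adjusted p = 0.431) without the library labelled pdia6 null replicate 1. A two-sided exact permutation test gave p = 0.1 for each null against wild type (n = 3 against 3), the smallest this design allows.

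The pros1 call in focad null depended on the processing and on single libraries. It held in 7 of 20 alternatives by limma, with adjusted p from 0.0033 to 0.188 and log2 changes from -3.82 to -2.88, so its direction held in all 20. It was lost without any 1 of the wild-type libraries (adjusted p = 0.0697, 0.118 and 0.147 without replicates 1 to 3). It was also lost without focad null replicate 1 (0.188), without the library labelled focad null replicate 2 (0.105) and without pdia6 null replicate 2 (0.0808). In the authors' deposited tables the adjusted p for pros1 was 0.120 in focad null, at a log2 ratio of the authors' group means of -3.39, and 0.260 in pdia6 null, at -2.54. No member passed 0.05 in the authors' deposited table of the focad comparison, where 1.15% of 25700 genes did.

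Protein C, the protease that protein S assists, is listed under 2 IDs. The first, ENSDARG00000038258, measured 107, 154 and 136 FPKM in wild type, 58.3, 122 and 95.3 under the focad null label and 66.1, 17.5 and 20.0 under the pdia6 null label. The second, ENSDARG00000093079, which was singled out after its values were seen, stood at 129.7, 222 and 173, 79.6, 93.3 and 129.9 and 82.7, 4.44 and 2.55 FPKM in the same order. For both IDs every pdia6 null value lay below every wild-type value, and replicates 2 and 3 lay far below all other libraries, while the library labelled pdia6 null replicate 1 lay among the focad null values. ENSDARG00000093079 had 7200, 10622 and 9616 reads in wild type and 5031, 280 and 146 under the pdia6 null label.

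With all 9 libraries neither proc ID passed in pdia6 null. ENSDARG00000038258 differed by -2.15 (SE 0.50, limma adjusted p = 0.102) and ENSDARG00000093079 by -3.87 (SE 1.01, adjusted p = 0.139). Without the library labelled pdia6 null replicate 1, whose pdia6 transcript lay inside the wild-type range, the changes were -2.74 (adjusted p = 0.0168) and -5.28 (SE 0.35, adjusted p = 0.0010) on the same scale by limma. In that fit ENSDARG00000093079 also differed between the nulls, by 4.50 for focad null minus pdia6 null (limma adjusted p = 0.0038), and ENSDARG00000038258 by 2.17 (adjusted p = 0.0511). In focad null the changes from wild type with all libraries were -0.57 (limma adjusted p = 0.659) and -0.78 (adjusted p = 0.787), with groups overlapping. The authors' deposited table for pdia6 null calls both proc IDs and no other member, 2 of 28 against 1.69% of its 25307 genes. That authors' deposited table gives log2 ratios of group means of -1.95 (adjusted p = 0.0185) for ENSDARG00000038258 and -2.58 (adjusted p = 0.0019) for ENSDARG00000093079. The IDs share a symbol, but their sequences were not compared, so whether reads of one could be assigned to the other is not known.

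**Figure D4:**
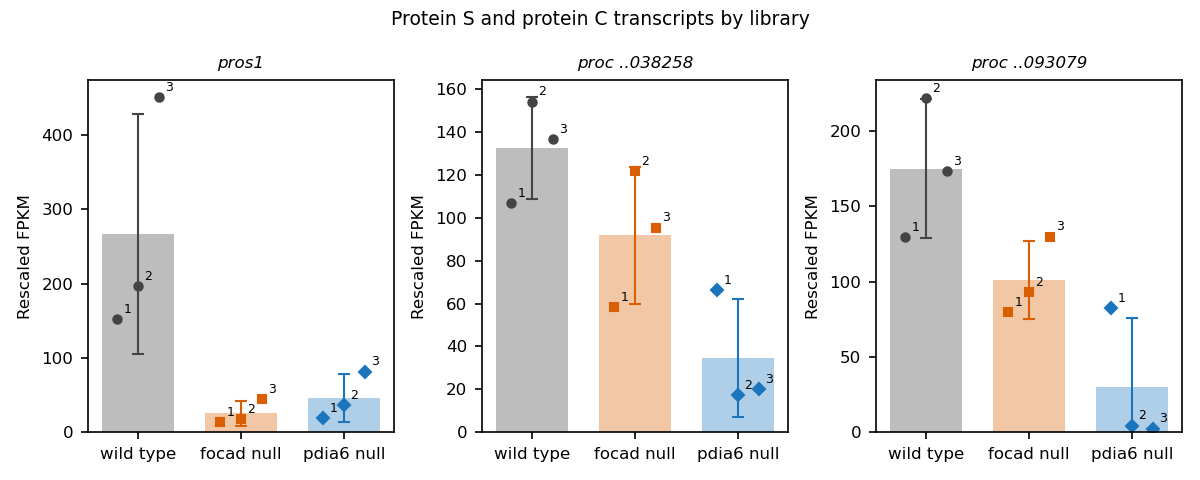
FPKM of pros1 and of both proc IDs in each library on a linear axis, with the replicate number beside each point, the bar at the group mean and the error bar 1 SD (n = 3). Each null library lies below each wild-type library for pros1, and pdia6 null replicates 2 and 3 lie far below the library labelled pdia6 null replicate 1 for both proc IDs.

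Antithrombin and heparin cofactor II are serpins that trap thrombin. Serpinc1 (ENSDARG00000042684), encoding antithrombin, measured 1009, 1135 and 1239.5 FPKM in wild type, 781, 585 and 833 under the focad null label and 1083, 791 and 802 under the pdia6 null label. The focad null values lay below wild type without overlap, at -0.63 (SE 0.25, limma adjusted p = 0.300), and the pdia6 null values overlapped, at -0.35 (adjusted p = 0.651). Serpind1, heparin cofactor II, ranged over 115 to 262 FPKM with overlap in every comparison. Over the libraries the proc IDs spanned 8.81-fold and 86.9-fold and pros1 32.1-fold, against 2.12-fold for serpinc1.

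In the RefSeq gene order of GRCz12tu, pros1 lies between gas6 and rasa3 on chromosome 1, and 14 protein-coding genes from f10, which sits next to a run of f7-type genes. Gas6, a growth factor related to protein S, had a log2 change of -0.059 in focad null (limma adjusted p = 0.972) and -0.87 in pdia6 null (adjusted p = 0.466). Rasa3, a Ras regulator, had -0.97 (limma adjusted p = 0.230) and -1.31 (adjusted p = 0.121). Neither neighbour passed the test.

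Plasminogen is the precursor of plasmin, and alpha-2-antiplasmin inhibits plasmin. Plg (ENSDARG00000023111) measured 3473, 2975 and 3582 FPKM in wild type, 1873, 1493 and 2064 under the focad null label and 3062, 1309 and 2506 under the pdia6 null label. The focad null values did not overlap with wild type, while the library labelled pdia6 null replicate 1 did. The log2 changes were -0.89 (SE 0.34, limma adjusted p = 0.280) and -0.63 (SE 0.34, adjusted p = 0.512). Serpinf2a (ENSDARG00000076448), one of the antiplasmin genes, measured 429, 437 and 512 FPKM in wild type, 324, 242 and 359 under the focad null label and 294, 246 and 314 under the pdia6 null label. Both null groups lay wholly below wild type, at -0.59 (limma adjusted p = 0.310) and -0.69 (adjusted p = 0.280). Its paralog serpinf2b (ENSDARG00000061383) gave 865, 1255 and 1525 FPKM in wild type, 873, 661 and 849 under the focad null label and 1139, 564 and 819 under the pdia6 null label. Its groups overlapped, with changes of -0.59 (limma adjusted p = 0.462) and -0.55 (adjusted p = 0.570).

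Kng1 (ENSDARG00000022372), kininogen, the source of bradykinin, measured 928, 1353 and 1545 FPKM in wild type, 1163, 840.0 and 1161 under the focad null label and 793, 943 and 845 under the pdia6 null label. All groups overlapped, and the log2 changes were -0.26 (limma adjusted p = 0.725) and -0.54 (adjusted p = 0.478). The first was -0.098 for kng1 without the library labelled focad null replicate 2.

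Vitamin K is the cofactor with which ggcx, the gamma-carboxylase of the ER, modifies prothrombin, factors VII, IX and X and proteins C and S, and vkorc1 recycles it. Vkorc1 (ENSDARG00000086183) measured 9.77, 3.04 and 6.48 FPKM in wild type, 3.69, 0.72 and 2.97 under the focad null label and 23.9, 3.98 and 10.3 under the pdia6 null label. All pdia6 null values lay above all focad null values, and wild type lay between and across. The vkorc1 log2 change from wild type was -1.11 in focad null (limma adjusted p = 0.461) and 0.70 in pdia6 null (adjusted p = 0.737). Without the library labelled focad null replicate 2 the first was -0.67, and without that labelled pdia6 null replicate 1 the second was 0.13. Vkorc1 spanned 33.1-fold over the libraries, and focad null minus pdia6 null was -1.81 (SE 0.64, limma adjusted p = 0.202). The vkorc1 difference was -1.24 (adjusted p = 0.404 by limma) without the library labelled pdia6 null replicate 1 and -0.79 (adjusted p = 0.560) when the library labelled focad null replicate 2, its lowest, was left out too. Ggcx measured 136, 83.7 and 107 FPKM in wild type, 72.5, 83.4 and 83.4 under the focad null label and 244, 56.5 and 92.6 under the pdia6 null label, highest in the library labelled pdia6 null replicate 1. Its log2 change was -0.42 in focad null (limma adjusted p = 0.751).

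The order of libraries for the vitamin K genes was set beside hspa5, the ER chaperone BiP. Hspa5 measured 734, 10.7 and 199 FPKM in wild type, 8.64, 19.6 and 19.8 under the focad null label and 2359, 16.3 and 37.9 under the pdia6 null label, so the library labelled pdia6 null replicate 1 and wild-type replicates 1 and 3 stood apart. Pdia6 transcript was highest in the same libraries. The 4 libraries highest in hspa5 were also the 4 highest for 2 of the 27 coagulation genes, ggcx and vkorc1. Its 2 highest libraries were also, in that order, the first 2 for fgb, fgg and ggcx. The genes lman1 and mcfd2 encode the receptor complex that carries factors V and VIII out of the ER. Lman1 stood at 35.5, 7.71 and 7.58, 10.2, 16.6 and 5.89 and 121, 18.9 and 27.6 FPKM and mcfd2 at 29.0, 12.5 and 18.0, 9.38, 15.3 and 8.75 and 89.9, 15.7 and 28.8 FPKM in wild type and the libraries labelled focad null and pdia6 null. Both were highest in the library labelled pdia6 null replicate 1 and next in wild-type replicate 1, while pros1, plg and the antiplasmins were highest in wild-type replicate 3. The orders are descriptions over 9 libraries, and the part of this ER difference in the results was not tested. How many of all genes share these orders was not counted, so the counts are not read as particular to the coagulation genes.

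**Figure D5:**
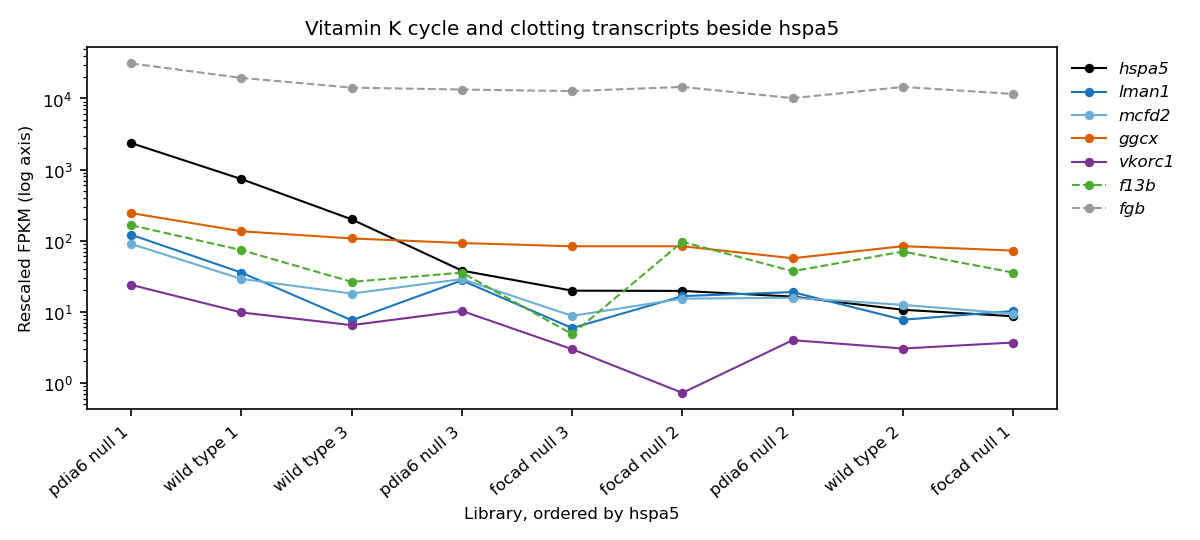
FPKM on a log axis of hspa5 and of coagulation and secretion genes in each of the 9 libraries, ordered by the hspa5 level. Ggcx and vkorc1 have the same 4 highest libraries as hspa5, which peaks at 2359 FPKM in the library labelled pdia6 null replicate 1. Lines join points of a gene to guide the eye.

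Other genes of the pathway were read from lists outside the coagulation set. Of all genes tested, 0.519 to 0.933% were called per direction and comparison, so 0 calls in lists this short say little. Of 15 other haemostasis genes of the liver that were tested, 0 were called in any comparison, with median log2 changes of -0.38 in focad null and -0.53 in pdia6 null. Proza, a protein Z gene, had the lowest p against wild type in both nulls, at -1.02 (limma adjusted p = 0.176) and -1.32 (adjusted p = 0.0947). Tfpi, encoding tissue factor pathway inhibitor, had the lowest p between the nulls, at 0.56 (limma adjusted p = 0.316). Of 5 plasminogen activation genes tested 0 were called, and both plat and plaua, which encode the plasminogen activators, were too low to be tested. Among these, s100a10a, which helps bind plasminogen at cell surfaces, had the lowest p in focad null at 2.94 (limma adjusted p = 0.358) and also between the nulls at 3.37 (adjusted p = 0.246). Its level was 52.4, 534 and 5.33 FPKM under the focad null label, against 4.90 to 7.41 in wild type, and so was highest in the library labelled focad null replicate 2, which also had the highest intestine marker sum. Without that library the s100a10a change from wild type was 1.32 (limma adjusted p = 0.583), and the part of intestine RNA in it was not tested. In pdia6 null it was plgrkt, a plasminogen receptor, at -1.06 (limma adjusted p = 0.484).

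Of 10 secretion genes tested 0 were called, and the lowest p was that of sec24a, a coat protein of ER export vesicles, at -0.76 in focad null (limma adjusted p = 0.300) and -0.72 in pdia6 null (adjusted p = 0.382). Between the nulls it was mcfd2, at -1.59 (limma adjusted p = 0.218). Of 10 acute phase signalling genes tested 1 was called lower in focad null than in wild type, against 0.933% of all genes. This was hp, haptoglobin, at 1492, 629 and 529 FPKM in wild type, 2.09, 15.0 and 12.02 under the focad null label and 460.1, 15.7 and 482 under the pdia6 null label. Its log2 change was -6.52 (SE 1.27, limma adjusted p = 0.0480). The hp call held in 7 of 20 alternatives, with changes from -6.97 to -5.78. It was lost without any 1 of wild-type replicates 1 to 3 (limma adjusted p = 0.131, 0.126 and 0.126), focad null replicate 1 (0.188), the library labelled focad null replicate 2 (0.0745), that labelled pdia6 null replicate 1 (0.0576) or pdia6 null replicate 3 (0.0554). Cebpd, a transcription factor of the acute phase, had the lowest p in pdia6 null at -1.20 (limma adjusted p = 0.0537) and between the nulls at 1.21 (adjusted p = 0.0510). Of 8 hepatocyte transcription factor genes tested 0 were called. Nr5a2, a nuclear receptor, had the lowest p in focad null at -0.82 (limma adjusted p = 0.279), nr1h4, the bile acid receptor, in pdia6 null at 0.59 (adjusted p = 0.344), and foxa1 between the nulls at -1.57 (adjusted p = 0.251).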

How the data were processed

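Liver RNA was sequenced in 9 libraries, 3 per genotype. Per the labels' protocols, RNA came from snap-frozen livers by Qiagen kits and had an integrity number above 6.5. Bowtie2 2.2.3, TopHat2 2.0.12, HTSeq 0.6.1 and danRer11 are listed in the submitters' processing notes without role or order. Not given in the sources used here: strand handling, annotation and how the authors tested differences.

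The authors deposited FPKM per gene and library. For each null against wild type they deposited a signal value per group (a scaled mean read count) and p-values, raw and adjusted, per the file headers. Log2 ratios of those tables were recomputed from the deposited group means. Names came from the Ensembl name table given with the data, and gene order from the RefSeq annotation of GRCz12tu, with no coordinates taken from it.

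Each FPKM column was rescaled by its median ratio to each gene's geometric mean, taken over 7660 genes above or at 1 FPKM in every library, and all FPKM printed are rescaled. The 13290 genes whose mean reached 0.5 FPKM were tested as log2(FPKM + 1) with limma 3.58.1 in R 4.3.3 (eBayes with trend and robust, all 9 libraries, 6 residual degrees of freedom). Two-sided p-values were adjusted by Benjamini-Hochberg over all of them, with a threshold of 0.05. The scale understates changes of low genes. Whole reads were recovered from the FPKM steps, within 0.05 of a whole number, for each of the 26489 gene IDs above 0 in any library. The other IDs of the 33716 were set to 0 reads. For IDs above 0 in few libraries this tolerance is easy to meet. Recovered reads totalled 46.1 to 54.5 M per library. On these reads limma voom, an alternative, called 97 genes in focad null against wild type, 78 in pdia6 null against wild type and 73 between the nulls. Python 3.11.15 with pandas 2.3.3 and matplotlib 3.10.9 made tables and figures. In a check on simulated counts the test missed most of the smallest changes, so a gene that did not pass may still differ.

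The members, lists and tests were chosen with earlier results of these data known, so the list as a whole has no test, and counts stand beside those over all genes. Given library by library are called members, the 10 highest in mean FPKM, the member of lowest p in each role and comparison, and ggcx, proc ENSDARG00000093079, lman1, mcfd2 and hspa5, added after their values were seen. Alternatives changed the pseudocount, filter, scaling, libraries, block, moderation and unit. Of the other lists, 17 of 30 symbols of liver haemostasis matched, 8 of 14 of plasminogen activation, 12 of 15 of secretion, 13 of 18 of acute phase signalling and 9 of 11 of liver factors.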

Additional observations from a re-analysis of the deposited data

How the results depend on the processing

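Over 20 alternatives, log2 changes of the members given library by library kept their direction and their side of the threshold in 1120 cases, gained a call in 11, lost it in 13 and turned sign in 53, where no call was made. For focad null against wild type, the number of members called was 0 in place of 1 (pros1) with a mean of at least 2 FPKM, with no filter, with FPKM as deposited, with the 6 libraries compared, with voom and when either pair of libraries was left out (the library labelled pdia6 null replicate 1 together with that labelled focad null replicate 2, or with wild-type replicate 1), and 0 to 1 when 1 library was left out. For pdia6 null against wild type it was 2 in place of 0 (both proc IDs) when either pair was left out, and 0 to 2 when 1 was. For focad null against pdia6 null it was 1 in place of 0 (proc ENSDARG00000093079) when either pair was left out, and 0 to 1 when 1 was. The median log2 change in focad null was -0.57, -0.47 with FPKM as deposited, -0.40 without the first pair, and from -0.64 to -0.40 when 1 library was left out. In pdia6 null it was -0.14, -0.026 with FPKM as deposited, -0.053 with equal column sums, -0.48 without the first pair and from -0.47 to 0.073. For focad null minus pdia6 null it was -0.26, 0.022 without the first pair, a reversal, and from -0.43 to -0.016. The cause of these shifts was not tested beyond the libraries left out.

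The sign of uncalled changes turned as follows. In pdia6 null against wild type, fgb, fgg, ggcx and f13b stood at -0.45, -0.43, -0.56 and -0.49 without the first pair and at -0.30, -0.28, -0.38 and -0.23 without the second. When 1 library was left out they ran from -0.45 to 0.36, -0.42 to 0.36, -0.55 to 0.49 and -0.49 to 0.60, fga from -0.67 to 0.025 and f7 (ENSDARG00000075827) from -0.22 to 0.32. That f7 ID stood at 0.080 with FPKM as deposited and 0.052 with equal column sums. In focad null minus pdia6 null, removal of the first pair put fgb, fgg, f2, plg, serpinc1, serpinf2b and ggcx at 0.066, 0.19, 0.32, 0.12, 0.022, 0.34 and 0.11 and habp2 at -0.12. Removal of the second put fgb, fgg, f2, serpinf2b and ggcx at 0.14, 0.18, 0.044, 0.21 and 0.13. With 1 library left out these ranges were -0.66 to 0.15 for fgb, -0.60 to 0.18 for fgg, -0.29 to 0.16 for f2, -0.30 to 0.21 for serpinf2b, -0.91 to 0.13 for ggcx, -0.027 to 0.32 for habp2, -0.024 to 0.27 for serpinf2a and -0.36 to 0.12 for that f7 ID. In focad null against wild type, f13a1b ran from -0.31 to 0.0021 (0.0020 without the second pair), f13b from -1.84 to 0.18 and that f7 ID from -0.39 to 0.23.

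Whether replicate numbers pair the libraries is not settled here. Over all genes tested, deviations of same-numbered libraries correlated at 0.03, -0.05 and -0.10 between wild type and focad null. They correlated at 0.29, 0.23 and 0.01 between wild type and pdia6 null, where differently numbered libraries gave -0.41 to 0.24. Between the nulls the same-numbered values were -0.19, 0.03 and 0.11. Such correlations do not show whether single genes share a replicate effect. With a replicate block the members called were 1 (pros1), 1 (pros1, limma adjusted p = 0.010) and 1 (vkorc1, adjusted p = 0.0426) in the 3 comparisons, and 121, 82 and 82 of all genes.

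Calls over all genes were 207, 163 and 160. They were 98 and 91 in the comparisons with wild type with a mean of at least 2 FPKM, and 254 between the nulls with a pseudocount of 0.1. With voom they were 97, 78 and 73. When 1 library was left out they ran from 89 to 484, 74 to 256 and 60 to 631. After the data were seen, the 4 gene IDs listed as f9, vtn and tfpi were counted with the members, which left the calls at 1, 0 and 0 and gave medians of -0.59, -0.29 and -0.21. FPKM as deposited moved the median of all genes by less than 0.1 on the log2 scale. Depth limits f3a and f3b, which hold few reads.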

Other observations

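The name table lists 4 gene IDs under symbols close to list symbols that did not match, 1 as f9, 2 as vtn and 1 as tfpi, and they were measured but not counted with the set. F9 (ENSDARG00000029493), listed as a factor IX gene, measured 128, 61.5 and 162 FPKM in wild type, 60.6, 36.1 and 65.8 under the focad null label and 88.5, 53.3 and 61.8 under the pdia6 null label. The groups overlapped, and the log2 change was -1.04 in focad null (limma adjusted p = 0.297) and -0.70 in pdia6 null (adjusted p = 0.552).

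Vitronectin, an adhesion protein of plasma, has 2 IDs listed as vtn. ENSDARG00000053831 ranged from 373 to 1005 FPKM and ENSDARG00000055388 from 74.9 to 234, with overlap in all comparisons. Tfpi (ENSDARG00000034718), the inhibitor of the tissue factor complex, measured 26.5, 40.8 and 28.3 FPKM in wild type, 21.5, 25.7 and 14.5 under the focad null label and 14.1, 11.3 and 14.5 under the pdia6 null label. Both null groups lay wholly below wild type, at -0.62 (limma adjusted p = 0.338) and -1.18 (adjusted p = 0.0947).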
